A study of Mus musculus with 6 samples.

Results

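A set of 9 genes of neurotrophin signalling was examined in the mouse hippocampus: the ligands *Bdnf* and *Ntf3*, the receptor tyrosine kinases *Ntrk2* (TrkB) and *Ntrk3* (TrkC), the p75 receptor *Ngfr*, the sortilin family receptors *Sort1*, *Sorcs1*, and *Sorcs3*, and the neuropeptide precursor *Vgf*. They were taken by symbol, and all 9 were found among the 14477 genes listed. RNA-Seq was done at baseline, with no treatment, on 6 hippocampi, 3 from Phf21bΔ4/Δ4 mice numbered as replicates 2, 3, and 6 and 3 from Phf21b+/+ mice numbered 5, 7, and 8, with 1 library of ribosome-depleted total RNA per mouse. The Phf21bΔ4/Δ4 line carries a CRISPR/Cas9 deletion in exon 4 of *Phf21b* in every tissue. *Phf21b* encodes a PHD finger protein of chromatin. Both genotypes were on a C57BL/6J background, and the study's methods give the animals as young adult male and female littermates between 2 and 6 months old, without the sex or age of each sequenced mouse. The study describes the line as a knockdown model. *Phf21b* itself had 2.15, 3.57, and 3.87 CPM (read counts scaled to library size) in Phf21bΔ4/Δ4 replicates 2, 3, and 6 and 6.50, 5.23, and 6.47 CPM in Phf21b+/+ replicates 5, 7, and 8. The genotypes did not overlap for it, at a log2 fold change (Phf21bΔ4/Δ4 over Phf21b+/+) of -0.96 with standard error 0.26 and FDR 0.14 by limma.

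Neurotrophins are secreted as precursors that can be cleaved to mature factors. Mature BDNF and NT-3 act mainly on TrkB and TrkC, whose kinases start the Ras/MAPK, PI3K/Akt, and PLCγ cascades that serve survival and synaptic plasticity, whereas uncleaved precursors bind p75 together with a sortilin family receptor. Sortilin also carries BDNF and Trk receptors through the secretory and axonal routes, SorCS3 is a postsynaptic sorting receptor known from CA1 neurons, and VGF, first found as a gene induced by nerve growth factor, is packed in dense-core granules and is itself induced by BDNF.

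The sequences before the transcription start are shown for *Bdnf*, because activity-dependent transcription of this gene is known to run through a cAMP response element (CRE)-like site, and for the paralogs *Sorcs3* and *Sorcs1*, because they had the smallest and the largest p among the 9 genes. The sequences are RefSeq's for GRCm38.p6, which matched 6 of the 9 genes, with 13 windows of 250 bases upstream, and 7 of these windows belonged to *Bdnf*. Each sequence is given 5′ to 3′ on the gene's strand, and capitals mark the CRE-like site. The *Bdnf* window is at chr2:109692186-109692435 on the plus strand, the *Sorcs3* window is at chr19:48205775-48206024 on the plus strand, and the *Sorcs1* window is at chr19:50678647-50678896 on the minus strand.
Bdnf: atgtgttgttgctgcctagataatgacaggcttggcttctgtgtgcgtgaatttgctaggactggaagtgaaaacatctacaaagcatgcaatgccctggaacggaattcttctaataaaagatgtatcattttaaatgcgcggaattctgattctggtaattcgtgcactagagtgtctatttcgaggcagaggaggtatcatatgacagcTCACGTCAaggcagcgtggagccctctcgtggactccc
Sorcs3: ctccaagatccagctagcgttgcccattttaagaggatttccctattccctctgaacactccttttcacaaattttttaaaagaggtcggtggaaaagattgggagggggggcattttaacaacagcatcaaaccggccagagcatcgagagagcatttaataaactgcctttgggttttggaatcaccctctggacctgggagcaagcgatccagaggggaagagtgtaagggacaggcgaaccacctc
Sorcs1: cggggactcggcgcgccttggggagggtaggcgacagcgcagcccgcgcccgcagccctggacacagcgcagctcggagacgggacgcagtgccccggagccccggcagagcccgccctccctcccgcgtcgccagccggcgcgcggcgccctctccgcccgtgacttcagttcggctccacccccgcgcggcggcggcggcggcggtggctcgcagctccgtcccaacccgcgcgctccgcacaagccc
Both strands of all windows were searched for the CRE palindrome TGACGTCA, the CRE-like TCACGTCA, its core TGACG, the E-box CACGTG, and the TATA box TATAAA. Among windows of this length for all genes, 1.55% hold TGACGTCA, 0.350% hold TCACGTCA, 17.8% hold TGACG, 6.02% hold CACGTG, and 12.4% hold TATAAA. In the 13 windows, TCACGTCA was found once, beginning 38 bases before the third *Bdnf* start (chromosome 2, 109692436), and the only TGACG lay inside it on the other strand. CACGTG was found once, 231 bases before an *Ntf3* start (chromosome 6, 126166744). TGACGTCA and TATAAA were in none of the 13 windows. The paralogs differed in base composition, with 48.4% G and C before *Sorcs3* and 79.6% before *Sorcs1*.

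In the Phf21bΔ4/Δ4 hippocampus, *Sorcs3* and *Vgf* rose to nearly double their Phf21b+/+ levels. They were the only 2 of the 9 genes past the threshold for differential expression (FDR under 0.1 and fold change above 1.3 by limma's moderated test), which 0.553% of all listed genes passed as higher and 0.663% as lower. *Ntrk2*, *Ntrk3*, and *Sort1* had levels in every Phf21bΔ4/Δ4 mouse above every Phf21b+/+ mouse, with log2 fold changes of 0.40 to 0.53 that did not pass the threshold. The ligands *Bdnf* and *Ntf3* had their lowest values in the same pair of Phf21bΔ4/Δ4 mice while the other Phf21bΔ4/Δ4 mouse was within or above the Phf21b+/+ range, and *Ngfr* and *Sorcs1* overlapped between genotypes. In all, the genotypes did not overlap for 5 of the 9 genes, each with higher values in Phf21bΔ4/Δ4 mice, where 31.0% of all genes did not overlap (15.0% higher and 16.0% lower). An unadjusted p under 0.05 was reached by 6 of the 9 and by 23.6% of all genes. The median log2 fold change was 0.40 over the 9 genes and -0.019 over all 14477, and 5 of the 9 and 47.6% of all genes were above 0. *Vgf* and *Sorcs3* are also on the list of differentially expressed genes that the study drew from these same samples, so their calls are not independent evidence.

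**Figure D1:**
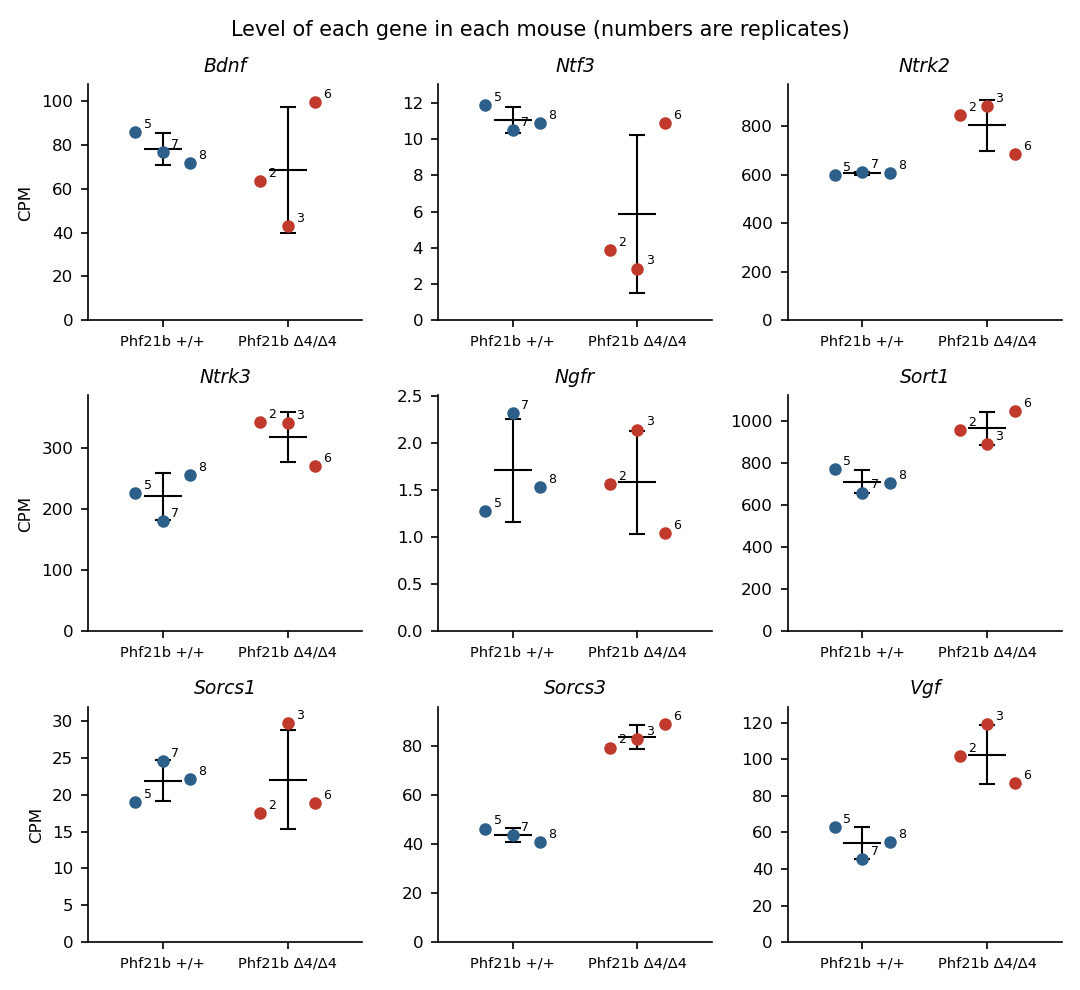
Level of each of the 9 genes in CPM (vertical axes, each starting at 0) in each mouse (points, numbered by replicate), with the mean and SD of the 3 mice of a genotype as bars. *Sorcs3* lies between 40.8 and 46.4 CPM in Phf21b+/+ mice and between 79.4 and 89.1 CPM in Phf21bΔ4/Δ4 mice, whereas *Ntf3* in Phf21bΔ4/Δ4 mice divides into 2 low points and 1 at the Phf21b+/+ level.

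Among the ligands, *Bdnf* (ENSMUSG00000048482.14, chr2:109674700-109727007, plus strand of GRCm38), the main activity-dependent neurotrophin of the adult brain, had 63.5, 42.9, and 99.3 CPM in Phf21bΔ4/Δ4 replicates 2, 3, and 6 and 85.7, 76.7, and 71.5 CPM in Phf21b+/+ replicates 5, 7, and 8. Phf21bΔ4/Δ4 replicates 2 and 3 were below, and replicate 6 was above, all Phf21b+/+ mice. The means were 68.6 ± 28.6 CPM (SD, n = 3) and 77.9 ± 7.17 CPM (SD, n = 3), and the log2 fold change was -0.27 (95% interval -0.94 to 0.41, FDR 0.57 by limma). The highest Phf21bΔ4/Δ4 value was 2.32 times the lowest, against 1.20 times among Phf21b+/+ mice. An antisense transcript on the opposite strand, Gm45346, shares 896 bases (14.4%) of the *Bdnf* exons, and no source used here states whether the counting used strand, without which reads of the pair cannot be told apart.

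*Ntf3* (ENSMUSG00000049107.13, chr6:126101412-126166910, minus strand) encodes NT-3, which in the adult hippocampus is known mainly from dentate granule cells. It had 3.88, 2.86, and 10.9 CPM in Phf21bΔ4/Δ4 replicates 2, 3, and 6 and 11.9, 10.5, and 10.9 CPM in Phf21b+/+ replicates 5, 7, and 8, from 60 to 250 reads per mouse. Phf21bΔ4/Δ4 replicate 6 lay within the Phf21b+/+ range, and the other Phf21bΔ4/Δ4 mice were far below it. The log2 fold change was -1.16 (95% interval -2.27 to -0.06, FDR 0.20 by limma), and the exact permutation test gave p = 0.2. Without Phf21bΔ4/Δ4 replicate 6 the log2 fold change of *Ntf3* was -1.73 (FDR 0.011) and that of *Bdnf* was -0.58 (FDR 0.086), both then past the threshold, as were 19.5% of all genes in that fit (10.3% higher and 9.29% lower). With Phf21bΔ4/Δ4 replicates 2 and 3 both left out, an alternative added after the data were seen, they were -0.02 (FDR 0.96) and 0.35 (FDR 0.50).

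Markers of dentate granule cells were also lower in Phf21bΔ4/Δ4 replicates 2 and 3 than in replicate 6. Summed over 9 markers, they came to 221, 218, and 675 CPM in Phf21bΔ4/Δ4 replicates 2, 3, and 6 and 853, 741, and 757 CPM in Phf21b+/+ replicates 5, 7, and 8. In replicate 6 this sum was below every Phf21b+/+ mouse, whereas *Ntf3* was within the Phf21b+/+ range and *Bdnf* was above it. Of the 9, 7 were lower without overlap and 1 was differentially expressed. *Prox1*, the transcription factor of granule cell identity, had 50.4, 44.4, and 110 CPM in Phf21bΔ4/Δ4 replicates 2, 3, and 6 and 115 to 149 CPM in Phf21b+/+ mice. *Stxbp6* had 56.9, 53.1, and 111 CPM in the same Phf21bΔ4/Δ4 mice and 134 to 142 CPM in Phf21b+/+ mice. Their part in the *Bdnf* and *Ntf3* values was not tested. In bulk tissue, fewer cells of a type and less RNA per cell cannot be told apart.

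**Figure D2:**
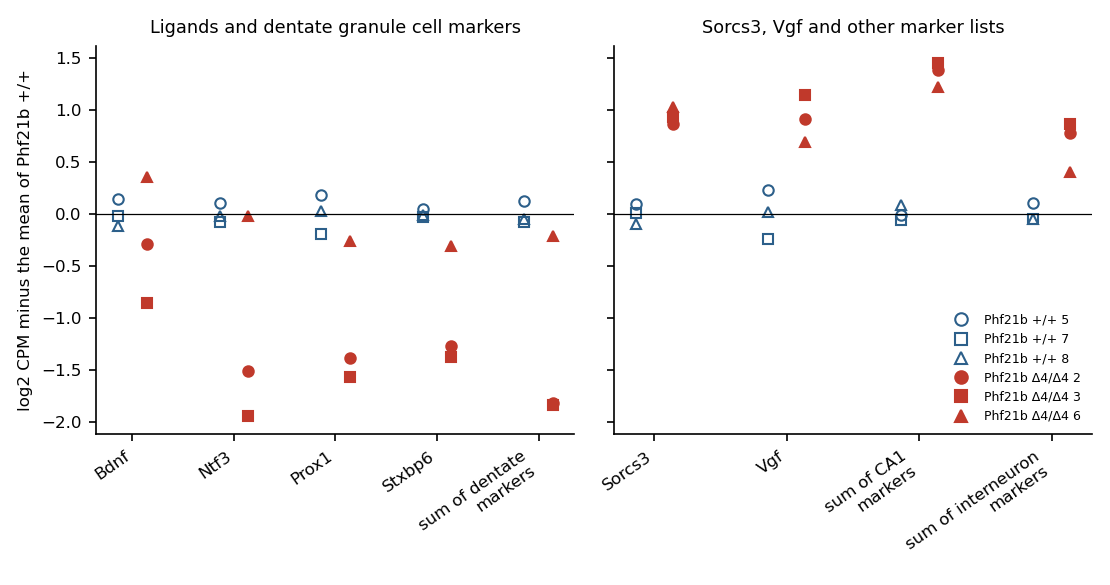
Level relative to the Phf21b+/+ mean (vertical axis, log2 CPM minus the mean of the 3 Phf21b+/+ mice) for the ligands with dentate granule cell markers (left) and for *Sorcs3* and *Vgf* with the summed CA1 and interneuron markers (right). Each symbol is 1 mouse. *Ntf3* is at -1.51 and -1.95 in Phf21bΔ4/Δ4 replicates 2 and 3 and at -0.02 in replicate 6, and the dentate sum is at -1.82, -1.85, and -0.21 in the same order.

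Among the Trk receptors, *Ntrk2* (ENSMUSG00000055254.15, chr13:58806569-59133970, plus strand) encodes TrkB, the BDNF receptor. Its CPM was 848, 883, and 686 in Phf21bΔ4/Δ4 replicates 2, 3, and 6 and 599, 613, and 608 in Phf21b+/+ replicates 5, 7, and 8. All Phf21bΔ4/Δ4 values were above the narrow Phf21b+/+ range. The means were 806 ± 105 CPM and 607 ± 7.09 CPM (SD, n = 3 each), with a log2 fold change of 0.40 (standard error 0.12, 95% interval 0.12 to 0.68, FDR 0.15 by limma). Counts per gene sum the kinase form of TrkB, known from neurons, and the truncated form, known from astrocytes. Summed over 8 astrocyte markers, the level was 2851 to 3205 CPM in Phf21bΔ4/Δ4 mice and 2915 to 3273 CPM in Phf21b+/+ mice, a sum to which *Slc1a3* and *Aldoc* gave the most. The markers were not uniform. The water channel *Aqp4* was lower (log2 fold change -0.68, FDR 0.067 by limma), and the filament gene *Gfap* was at 330.3 ± 107 against 520.3 ± 60.1 CPM without overlap (SD, n = 3 each; log2 fold change -0.70, FDR 0.17), whereas *Slc1a3* had a log2 fold change of 0.22 (FDR 0.30). Their part in the *Ntrk2* values was not tested.

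*Ntrk3* (ENSMUSG00000059146.12, chr7:78175959-78738012, minus strand) encodes TrkC, the NT-3 receptor. It had 342, 340, and 270 CPM in Phf21bΔ4/Δ4 replicates 2, 3, and 6 and 226, 180, and 256 CPM in Phf21b+/+ replicates 5, 7, and 8. Phf21bΔ4/Δ4 replicate 6 was closest to the Phf21b+/+ mice for this gene too. The log2 fold change was 0.53 (standard error 0.16, 95% interval 0.16 to 0.91, FDR 0.15 by limma). The difference between the receptors within a mouse (log2 CPM of *Ntrk2* minus *Ntrk3*) was 1.34 ± 0.034 in Phf21bΔ4/Δ4 mice and 1.47 ± 0.27 in Phf21b+/+ mice (SD, n = 3 each; exact permutation test, p = 0.6, 0.6 adjusted over 5 pairs). Without Phf21bΔ4/Δ4 replicate 6 both receptors passed the threshold, at log2 fold changes of 0.51 (FDR 0.026) and 0.64 (FDR 0.050), as did 19.5% of all genes in that fit.

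Among the p75 and sortilin family receptors, *Ngfr* (ENSMUSG00000000120.6, chr11:95568818-95587735, minus strand) had the lowest levels, with 24 to 45 reads in Phf21bΔ4/Δ4 mice and 27 to 55 in Phf21b+/+ mice. These were 1.56, 2.14, and 1.04 CPM in Phf21bΔ4/Δ4 replicates 2, 3, and 6 and 1.28, 2.32, and 1.53 CPM in Phf21b+/+ replicates 5, 7, and 8. The values overlapped throughout, and the log2 fold change was -0.13 (95% interval -1.01 to 0.75, FDR 0.85 by limma), an interval that is wide on both sides of 0. In the forebrain, p75 is known from basal forebrain cholinergic neurons, and the 3 listed markers of those cells summed to 1.22 to 1.86 CPM in Phf21bΔ4/Δ4 mice and 19.9 to 38.7 CPM in Phf21b+/+ mice. *Chat* and *Slc5a7*, which also mark the medial habenula, were 2 of the 3 and were both differentially expressed. *Chat*, the enzyme that makes acetylcholine, had 1, 0, and 0 reads in Phf21bΔ4/Δ4 replicates 2, 3, and 6 and 78, 101, and 169 in Phf21b+/+ replicates 5, 7, and 8. Their part in the *Ngfr* values was not tested.

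*Sort1* (ENSMUSG00000068747.14, chr3:108284082-108361511, plus strand) encodes sortilin, the co-receptor of p75 for precursor neurotrophins. It had 960, 893, and 1050 CPM in Phf21bΔ4/Δ4 replicates 2, 3, and 6 and 771, 661, and 707 CPM in Phf21b+/+ replicates 5, 7, and 8. The genotypes did not overlap. The log2 fold change was 0.44 (standard error 0.11, 95% interval 0.18 to 0.70, FDR 0.13 by limma), and it was past the threshold only without Phf21bΔ4/Δ4 replicate 6 (0.38, FDR 0.074) and with the mice weighted by arrayWeights (0.42, FDR 0.015), a fit that called 10.2% of all genes as higher and 14.3% as lower. Gm12523 on the opposite strand shares 338 bases (4.47%) of its exons. Quantile normalization brought the log2 fold changes of *Sort1*, *Ntrk2*, and *Ntrk3* to 0.21, 0.14, and 0.35.

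*Sorcs3* (ENSMUSG00000063434.6, chr19:48206025-48805505, plus strand) was the gene with the smallest p of the 9. It had 79.4, 82.9, and 89.1 CPM in Phf21bΔ4/Δ4 replicates 2, 3, and 6 and 46.4, 43.8, and 40.8 CPM in Phf21b+/+ replicates 5, 7, and 8, from 907 to 2049 reads. Each group was tight, with the highest mouse 1.12 times the lowest in Phf21bΔ4/Δ4 mice and 1.14 times in Phf21b+/+ mice. The means were 83.8 ± 4.94 CPM and 43.7 ± 2.80 CPM (SD, n = 3 each), a 1.92-fold rise (log2 fold change 0.94, standard error 0.083, 95% interval 0.74 to 1.14, FDR 0.018 by limma). Without Phf21b+/+ replicate 8 the log2 fold change was 0.89 and the FDR was 0.11, so the call was lost, and it was kept with any other mouse left out.

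*Sorcs1* (ENSMUSG00000043531.16, chr19:50143299-50678646, minus strand), a sorting receptor of the same family and chromosome, had 17.5, 29.7, and 18.8 CPM in Phf21bΔ4/Δ4 replicates 2, 3, and 6 and 19.0, 24.6, and 22.1 CPM in Phf21b+/+ replicates 5, 7, and 8. The Phf21bΔ4/Δ4 mice held both the highest and the lowest values. The log2 fold change was -0.03 (95% interval -0.54 to 0.49, FDR 0.95 by limma). Gm45352 on the opposite strand shares 213 bases (2.52%) of its exons. Within a mouse, log2 CPM of *Sorcs3* minus *Sorcs1* was 1.97 ± 0.42 in Phf21bΔ4/Δ4 mice and 1.0 ± 0.25 in Phf21b+/+ mice (SD, n = 3 each), without overlap. The difference of 0.97 had p = 0.1 in the exact permutation test, the smallest p that 3 against 3 mice allow, and 0.125 adjusted over the 5 pairs. *Sorcs3* minus *Sort1* was -3.53 ± 0.088 in Phf21bΔ4/Δ4 mice and -4.03 ± 0.10 in Phf21b+/+ mice, a difference of 0.50 with the same p-values.

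*Vgf* (ENSMUSG00000037428.14, chr5:137026392-137033351, plus strand) had 102, 119, and 86.8 CPM in Phf21bΔ4/Δ4 replicates 2, 3, and 6 and 63.1, 45.5, and 54.7 CPM in Phf21b+/+ replicates 5, 7, and 8. The groups stood apart, though the spread within each was wider than for *Sorcs3*. The means were 102 ± 16.1 CPM and 54.4 ± 8.77 CPM (SD, n = 3 each), a 1.88-fold rise (log2 fold change 0.91, standard error 0.16, 95% interval 0.54 to 1.29, FDR 0.084 by limma). The call was kept in 1 of the 6 fits that each left out 1 mouse, that without Phf21bΔ4/Δ4 replicate 6 (1.03, FDR 0.022). Without Phf21bΔ4/Δ4 replicate 2 or 3 or Phf21b+/+ replicate 5, 7, or 8, the log2 fold change was between 0.79 and 1.03 and the FDR between 0.11 and 0.31. The highest *Vgf* and the lowest *Bdnf* of the Phf21bΔ4/Δ4 mice were in replicate 3, whereas Phf21b+/+ replicate 5 had the highest values of both among Phf21b+/+ mice. Within a mouse, log2 CPM of *Vgf* minus *Bdnf* was 0.65 ± 0.83 in Phf21bΔ4/Δ4 mice and -0.53 ± 0.20 in Phf21b+/+ mice (SD, n = 3 each), a difference of 1.18 without overlap (exact permutation test, p = 0.1, 0.125 adjusted over the 5 pairs). *Bdnf* minus *Ntf3* was 3.71 ± 0.45 in Phf21bΔ4/Δ4 mice and 2.81 ± 0.086 in Phf21b+/+ mice, a difference of 0.90 with the same p-values.

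Summed markers of CA1 neurons and interneurons were higher beside *Sorcs3* and *Vgf*, and those of CA3 and CA2 neurons overlapped between genotypes. Summed over 8 markers of CA1 pyramidal neurons, the level was 1023 to 1201 CPM in Phf21bΔ4/Δ4 mice and 420 to 466 CPM in Phf21b+/+ mice, a ratio of 2.55, and 3 of the 8 markers were differentially expressed. *Fibcd1* was at 282 ± 88.1 against 96.6 ± 9.05 CPM (SD, n = 3 each; log2 fold change 1.51, FDR 0.062 by limma), and *Mpped1* was at 307 ± 82.1 against 114 ± 22.01 CPM (log2 fold change 1.42, FDR 0.072). Over 9 markers of GABAergic interneurons the sum was 798 to 1098 CPM in Phf21bΔ4/Δ4 mice and 582 to 648 CPM in Phf21b+/+ mice. Differentially expressed was 1 marker, *Gad2*, which is on the study's list too. The GABA-synthesizing enzyme *Gad1* had 337 ± 34.5 against 228 ± 23.9 CPM (log2 fold change 0.56, FDR 0.12), and *Reln* had 179 ± 75.5 against 95.4 ± 20.7 CPM (log2 fold change 0.84, FDR 0.21). The 9 markers of CA3 and CA2 neurons summed to 684 to 1023 CPM in Phf21bΔ4/Δ4 mice and 716 to 798 CPM in Phf21b+/+ mice, with a median log2 fold change of -0.66, 3 markers lower without overlap, and no calls. The part of these markers in the *Sorcs3* and *Vgf* values was not tested.

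**Figure D3:**
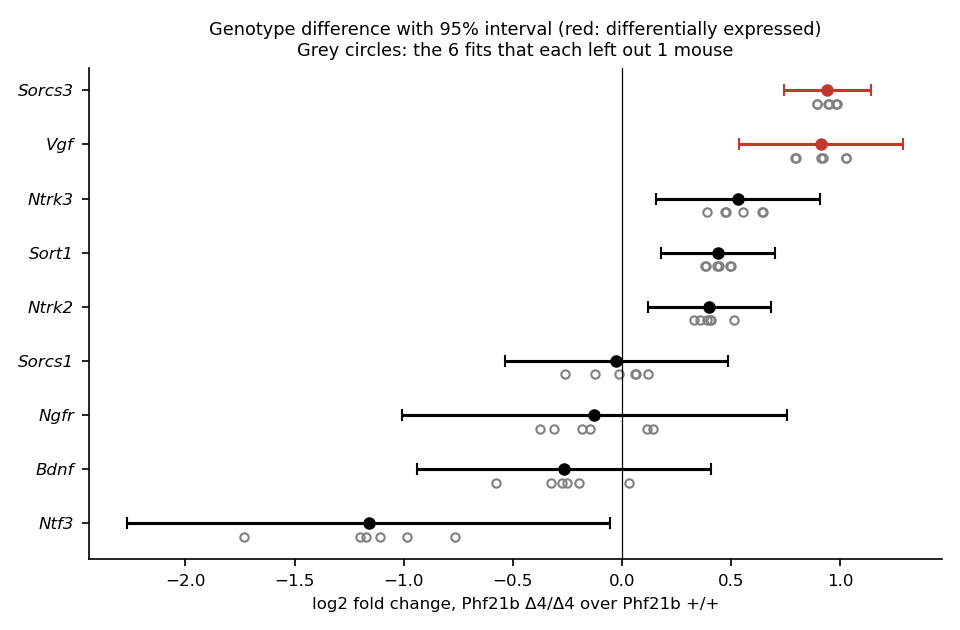
Log2 fold change of each gene (Phf21bΔ4/Δ4 over Phf21b+/+, horizontal axis) with its 95% interval by limma as a bar, red for differentially expressed genes. Grey circles are the values when each of the 6 mice was left out. *Sorcs3* stays between 0.89 and 0.99, and *Ntf3* ranges from -1.73 to -0.77.

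Levels of different genes were compared per length, as CPM per kb of exon. In Phf21b+/+ mice the order from high to low was *Sort1* (94.2 CPM per kb), *Ntrk2* (31.4), *Vgf* (18.3), *Bdnf* (12.5), *Ntrk3* (7.31), *Ntf3* (6.46), *Sorcs3* (6.12), *Sorcs1* (2.59), and *Ngfr* (0.496). The ranges over the 3 mice of *Ntrk3*, *Ntf3*, and *Sorcs3* overlapped one another, and the other neighbours in this order did not overlap. In Phf21bΔ4/Δ4 mice *Sort1* (128 CPM per kb) was again followed by *Ntrk2* (41.8) and *Vgf* (34.5), which now overlapped. *Sorcs3* (11.8), *Bdnf* (11.03), and *Ntrk3* (10.5) came next and overlapped, then *Ntf3* (3.43) and *Sorcs1* (2.61), which also overlapped, and *Ngfr* (0.459) was last. The sortilin family held both the highest gene and the last but one in each genotype.

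**Figure D4:**
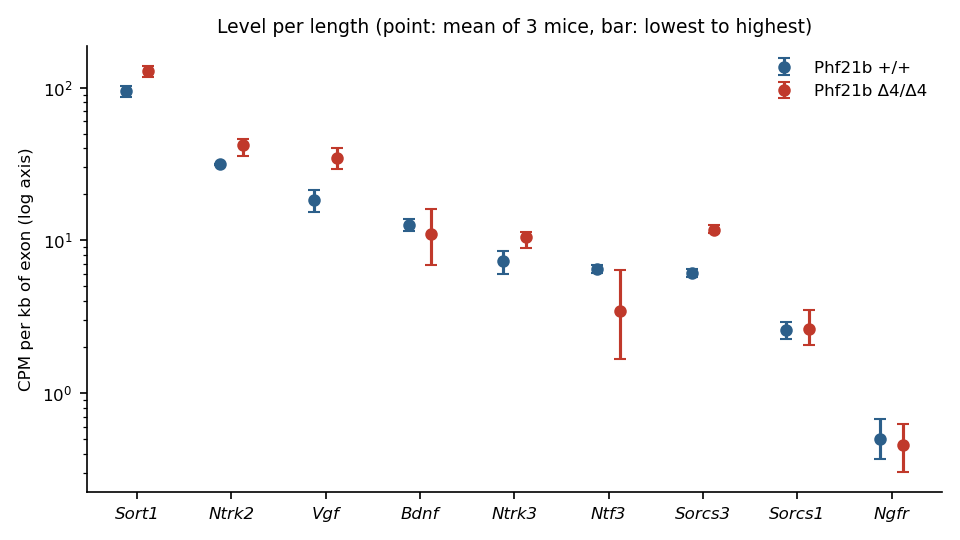
CPM per kb of exon (vertical axis, log scale) for the 9 genes in order of their Phf21b+/+ level. Points are means of 3 mice and bars run from the lowest to the highest mouse. *Sort1* is highest at 94.2 and 128 in Phf21b+/+ and Phf21bΔ4/Δ4 mice, and *Ngfr* is lowest at 0.496 and 0.459.

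Outside the 9 genes, 134 other genes of the pathway were listed in 7 groups by role and 128 of them were tested. *Nr4a1*, *Homer1*, and *Mapk10* rose and none fell, so 3 of 128 (2.34%) were differentially expressed beside 1.22% of all genes. Without overlap between genotypes, 31 were higher and 7 were lower (24.2% and 5.47%, beside 15.0% and 16.0% of all genes). The median log2 fold change of the 128 was 0.10. The list of 16 activity-regulated genes held 2 of the 3 calls and had the highest median of the 7 lists, 0.36. Of the 16, 14 had log2 fold changes above 0, among them *Arc* (0.076, FDR 0.83 by limma), and *Fos* (-0.27, FDR 0.58) and *Inhba* (-0.39, FDR 0.52) were below 0. *Nr4a1* and *Homer1* are also on the study's list of differentially expressed genes from these same samples, so their calls are not independent evidence. *Nr4a1*, an immediate early gene that encodes a nuclear receptor, had 24.2, 23.4, and 25.3 CPM in Phf21bΔ4/Δ4 replicates 2, 3, and 6 and 13.9, 15.1, and 14.2 CPM in Phf21b+/+ replicates 5, 7, and 8 (log2 fold change 0.76, standard error 0.087, FDR 0.046 by limma). *Homer1*, a postsynaptic scaffold with an activity-induced short form, had 258 ± 14.7 against 173 ± 9.51 CPM (SD, n = 3 each; log2 fold change 0.57, standard error 0.080, FDR 0.065). Each of these genes lost its call in 1 or more of the fits that left out 1 mouse, since none of the 128 was called without Phf21bΔ4/Δ4 replicate 2 or without Phf21b+/+ replicate 5, 7, or 8, whereas 30 were called without Phf21bΔ4/Δ4 replicate 6.

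Among 16 p75 adaptors, *Mapk10*, the neuronal Jun kinase JNK3 downstream of p75, had 374 ± 16.9 against 261 ± 26.0 CPM (SD, n = 3 each; log2 fold change 0.52, standard error 0.098, FDR 0.099 by limma) and was the only call, and the list's median was 0.049. Among 12 other ligands, receptors, and antagonists there were no calls and the median was 0.26, with 5 genes higher without overlap. The 2 of smallest p were *Lingo1*, a p75 and Nogo receptor partner (172 ± 24.8 against 99.2 ± 17.9 CPM, log2 fold change 0.80, FDR 0.12), and *Sorl1*, another member of the sortilin family (676 ± 34.4 against 459 ± 57.6 CPM, log2 fold change 0.57, FDR 0.12). The 14 genes of precursor processing and secretion had no calls and a median of 0.23. *Serpini1*, the inhibitor neuroserpin, was at 414 ± 142 against 234 ± 52.1 CPM (log2 fold change 0.79, FDR 0.16), and *Htt*, whose protein takes part in BDNF vesicle transport, was at 300 ± 26.0 against 223 ± 24.9 CPM (log2 fold change 0.43, FDR 0.14).

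The 37 Trk adaptors and kinases had no calls, with a median of 0.077 and values on both sides of 0. The kinase *Braf* was at 245 ± 15.4 against 193 ± 13.4 CPM (SD, n = 3 each; log2 fold change 0.35, FDR 0.14 by limma), and *Rps6ka1*, the ribosomal S6 kinase RSK1, was at 13.79 ± 1.02 against 16.9 ± 0.581 CPM (log2 fold change -0.29, FDR 0.17). The 18 regulators of *Bdnf* and *Vgf* transcription had no calls and a median of 0.10. *Arnt2*, the partner of NPAS4, was at 274 ± 87.6 against 150 ± 22.1 CPM (log2 fold change 0.82, FDR 0.16), and *Mef2a* was at 256 ± 21.5 against 220 ± 11.1 CPM (log2 fold change 0.21, FDR 0.21). The 15 dense-core granule proteins, the organelle of VGF, had no calls and a median of 0.16. The granule membrane proteins *Ptprn2* (411 ± 95.9 against 232 ± 24.03 CPM, log2 fold change 0.81, FDR 0.12) and *Ptprn* (318 ± 44.1 against 207 ± 22.4 CPM, log2 fold change 0.61, FDR 0.13) were the 2 of smallest p.

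**Figure D5:**
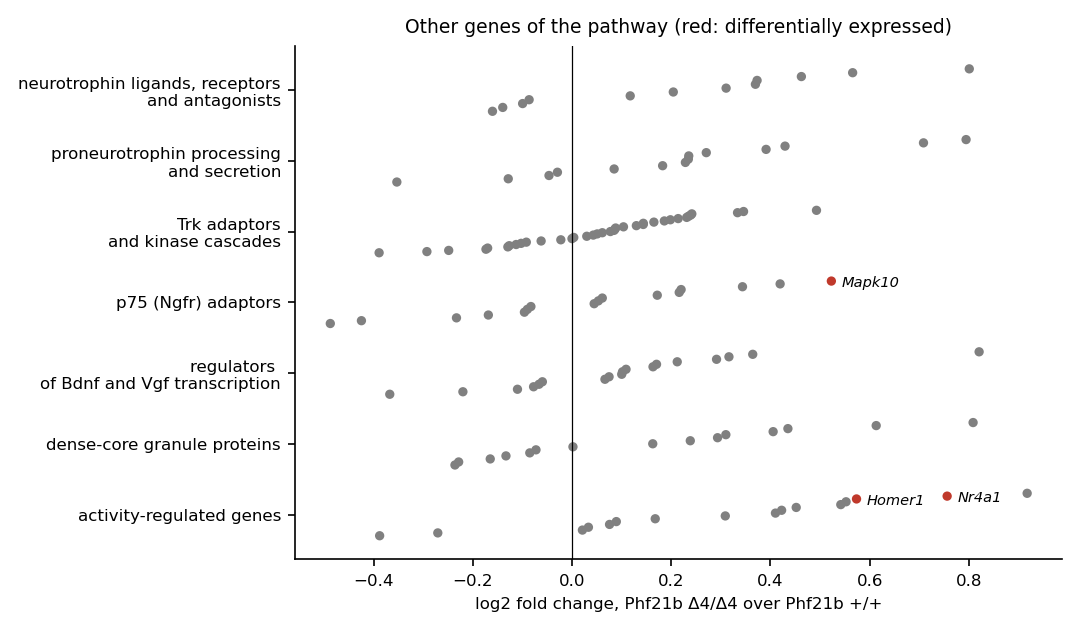
Log2 fold change (Phf21bΔ4/Δ4 over Phf21b+/+, horizontal axis) of the 128 tested pathway genes outside the 9, 1 point per gene, in 7 lists by role (rows) and sorted upward by value within a list. The 3 differentially expressed genes, *Mapk10*, *Homer1*, and *Nr4a1*, are red and lie to the right of 0.

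The pathway genes with profiles most like those of the called genes and *Bdnf* were found by the root mean square (RMS) difference of mean-centred log2 CPM over the 6 mice, among the 128. The 6 mice span both genotypes, so the RMS difference includes the genotype difference. Genes with a log2 fold change near that of a called gene therefore come out near it. Shared regulation was not tested. For *Sorcs3* they were *Nr4a1* (0.12), *Homer1* (0.21), and *Lingo1* (0.23). *Vgf* was nearest to *Lingo1* (0.062), *Ptprn2* (0.10), and *Serpini1* (0.18). *Bdnf* was nearest to *Nptx2* (0.16), *Chgb* (0.19), and *Inhba* (0.20). The synaptic pentraxin *Nptx2* had 36.1, 29.2, and 46.2 CPM in Phf21bΔ4/Δ4 replicates 2, 3, and 6 and 45.7, 44.4, and 38.7 CPM in Phf21b+/+ replicates 5, 7, and 8, with replicate 6 again above the other Phf21bΔ4/Δ4 mice.

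Reads on the listed genes came to between 20495605 and 24881257 per mouse. On the effective library sizes behind the deposited values, a level of 3 reads was 0.127 to 0.143 CPM, which covers counting error only. No source used here says whether the mice of a genotype came from separate litters, and p-values measure the spread between these mice. Markers of neighbouring tissue also differed between genotypes. The 12 markers of the medial habenula summed to 59.6 to 182 CPM in Phf21bΔ4/Δ4 mice and 307 to 358 CPM in Phf21b+/+ mice, and 9 were differentially expressed and lower. In Phf21bΔ4/Δ4 mice most of this sum came from *Calb2* and from *Nr4a2*, which overlapped between genotypes. Other markers fell further, such as *Gpr151* (means of 1.36 against 47.5 CPM) and *Chrna3* (0.60 against 25.4 CPM). The 6 thalamic markers summed to 101 to 187 and 365 to 555 CPM, with 2 lower. Choroid plexus markers summed to 22.8 to 80.5 CPM in Phf21bΔ4/Δ4 mice and 28.5, 15650, and 972 CPM in Phf21b+/+ replicates 5, 7, and 8. Endothelial and mural markers summed to 201 to 315 CPM in Phf21bΔ4/Δ4 mice and 145 to 189 CPM in Phf21b+/+ mice, with 5 of 8 higher without overlap, and oligodendrocyte precursor markers summed to 238 to 309.7 and 201 to 224 CPM, with 2 of 5 higher without overlap. Meningeal fibroblast markers summed to 14.4 to 28.8 and 35.6 to 53.9 CPM, with 2 of 6 lower without overlap. Oligodendrocyte sums (5809.9 to 8870.2 and 7019 to 9749 CPM) and microglial sums (389.7 to 417 and 379.7 to 397 CPM) overlapped. None of these 5 lists held a differentially expressed gene. *Xist*, the transcript of the inactive X chromosome of females, was between 86.9 and 216 CPM in all 6 mice. The Y-linked *Ddx3y*, *Eif2s3y*, *Kdm5d*, and *Uty* were not among the listed genes. By these genes all 6 mice read as female. The part of the marker differences in the values of the 9 genes was not tested.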

How the data were processed

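Hippocampal RNA of 6 mice was measured, and log2 CPM values of 14477 genes were deposited. Per the study's methods and the submitters' processing notes, the authors trimmed reads (Trimmomatic 0.39), aligned them to GRCm38 (STAR 2.7.3a), assigned them to GENCODE genes (featureCounts of Subread 1.6.4), and scaled them to effective library size with edgeR. They kept genes of at least 1 CPM in at least 2 samples, a limit that 14439 of the listed genes met in these mice. The prior count and the strand setting are not given in the sources used here. Whole reads were recovered from the values, which are logs of CPM plus that small prior (100% whole within 0.1 of a read, mean prior 0.1 reads) and gave the CPM and the depth per mouse. The overlapping antisense transcripts Gm45346, Gm12523, and Gm45352 were not among the listed genes under these names, so no per-mouse counts of them were at hand.

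Genotypes, taken from the sample labels, were compared on the deposited log2 CPM with limma 3.58.1 in R 4.3.3 (2-sided, trended prior variance, no covariate), and p-values were adjusted by Benjamini-Hochberg over all genes. Differential expression was called by the study's thresholds, a fold change over 1.3 with FDR below 0.1. The test the authors ran, that of edgeR, needs counts, so voom on the recovered reads was run as an alternative, which called 131 genes. The tests were checked on simulated reads with the same dispersion for every gene. No mouse-wide shift of many genes was simulated, so the check does not cover such shifts in these mice. The exact permutation tests used all 20 splits of the 6 mice (smallest p 0.1). Exon lengths came from GENCODE M21, whereas the authors' release was another of the same build. Named were the 9 genes, *Phf21b*, in each of 7 pathway lists all called genes or else the 2 of smallest p, the 2 highest genes of each of 15 marker lists where a result turned on them, and the 3 nearest profiles of the called genes and *Bdnf*. Some others were named after their values were seen. The 9 genes and all lists were chosen with earlier results of these data known. Several called markers, such as *Chat*, *Aqp4*, *Gad2*, and *Fibcd1*, are on the study's list of differentially expressed genes from these same samples. Their calls are not independent evidence. Figures were made with matplotlib 3.10.9 in Python 3.11.15.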

Additional observations from a re-analysis of the deposited data

How the results depend on the processing

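No paired analysis was possible because the genotypes share no replicate numbers. Leaving out 1 mouse moved the number of differentially expressed genes between 9 (without Phf21b+/+ replicate 8) and 2830 (without Phf21bΔ4/Δ4 replicate 6), from 176. For the 9 neurotrophin genes the number ranged from 0 to 7, and for the 128 pathway genes from 0 to 30. The counts over all genes, the 9 genes, and the pathway genes were 75, 1, and 1 with the same prior variance for all genes, 3549, 6, and 29 with arrayWeights, 25, 1, and 1 at an FDR under 0.05, and 49, 1, and 1 with Phf21bΔ4/Δ4 replicates 2 and 3 both left out (added after seeing the data, when the lone Phf21bΔ4/Δ4 mouse is assumed to vary like the Phf21b+/+ mice). With only genes of a mean log2 CPM of at least 1, the counts were 101 genes in all and 1 of the 9, since *Vgf* reached an FDR of 0.1001. The cause of these shifts was not tested. Fewer genes or mice entered where some were left out, and with 1 mouse left out the counts moved both down and up.

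*Sorcs3* kept its call under all 9 other alternatives with a value (log2 fold change 0.89 to 0.99) and *Vgf* under 7 of them (0.85 to 0.96), failing with the same prior variance (FDR 0.14) and the filter on the mean. With 1 mouse left out, log2 fold changes ranged from -0.58 to 0.031 for *Bdnf*, -0.37 to 0.14 for *Ngfr*, and -0.26 to 0.12 for *Sorcs1*. *Bdnf* turned to 0.031 without Phf21bΔ4/Δ4 replicate 3 and to 0.35 without both. *Ngfr* turned to 0.036 with arrayWeights, 0.22 with quantile normalization, 0.14 without Phf21bΔ4/Δ4 replicate 6, and 0.12 without Phf21b+/+ replicate 7. *Sorcs1* turned to 0.027 with quantile normalization, 0.024 with centring on the median, 0.12 without Phf21bΔ4/Δ4 replicate 2, 0.066 without Phf21bΔ4/Δ4 replicate 6, and 0.062 without Phf21b+/+ replicate 7. With Phf21bΔ4/Δ4 replicates 2 and 3 both left out, *Bdnf* minus *Ntf3* differed between genotypes by 0.38 and *Vgf* minus *Bdnf* by 0.33 in log2 CPM. With 1 mouse left out, these ranged from 0.73 to 1.15 and from 0.77 to 1.602.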
